A study of Vitis vinifera with 12 samples.

Results

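The sites described here are places on grapevine (Vitis vinifera) DNA where CARPO and NAC03 both had a binding event and NAC33 had none. CARPO (NAC60, gene Vitvi08g01843), NAC03 (Vitvi10g00437) and NAC33 (Vitvi19g01484) are transcription factors of the NAC family. An event of the CARPO 500 leaf list was taken when the NAC03 500 leaf list had an event at most 100 bp away, the NAC33 500 leaf list had none that close, and it did not lie on the unplaced sequence chr00. These 3 lists chose the sites, so their values are descriptions and carry no test. There were 2269 such shared sites among the 14344 CARPO 500 leaf events on the 19 numbered chromosomes (15.8%, exact 95% interval 15.2% to 16.4%), out of 44889 events of any list in the series. The background was 21.3% of CARPO 500 leaf events with a NAC03 event that close and 8.71% with a NAC33 event, values that the choice of sites fixes.

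The series measured binding by DNA affinity purification sequencing (DAP-seq). Each HALO-tagged factor was made in rabbit reticulocyte lysate and mixed with fragmented naked DNA of Syrah vines, from young leaf or from berry, and the retained fragments were sequenced. The berry source is that of the source label, whereas the protocol texts of these samples speak of leaf material. The groups are CARPO and NAC03 at 500 on leaf DNA, NAC33 at 500 on leaf DNA, CARPO and NAC33 at 1000 on leaf DNA, and CARPO and NAC33 at 500 on berry DNA, where 500 and 1000 are numbers in the sample titles without a unit. The CARPO and NAC33 500 leaf lists were each called on 2 replicates together and the other 5 lists on 1 library each. Leaf material came pooled from fruiting cuttings, and the DNA carried no chromatin. The 3 HALO-GST control samples were not analysed here, and whether the sites are recovered without a factor was not tested.

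NAC proteins bind DNA through a conserved amino-terminal NAC domain and generally act as dimers, which may pair 2 different members of the family. They are known in plants for roles in organ maturation, senescence and fruit ripening. CARPO is named in the title of the series as a controller of organ maturation and ripening, and NAC33 is known in grapevine for its part in the end of photosynthetic growth in leaves. In DAP-seq each factor is tested alone, so a place listed for both factors was recovered with each of them separately, and nothing is measured of joint binding.

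The lists have no header. Column 7 was read from its values as the strength of an event, a value of the authors on a scale of its own in each list, and it was used only to rank events within a list. The lists give no read totals, so depth is unknown. The genome build is not stated, and coordinates are given as deposited.

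The shared sites ranked high among the CARPO events. Their CARPO 500 leaf strength had a median of 47 (lowest 15, highest 11804.7), against 29 over all CARPO 500 leaf events and 27 over the 10825 events that had neither a NAC03 nor a NAC33 event within 100 bp. The 784 places with all 3 factors had a median of 58, and the 466 with CARPO and NAC33 but no NAC03 had 28. When the CARPO events were divided into 5 equal classes of strength, the shared sites made up 39.2% of the strongest class (1123 events) and 4.84% of the weakest (139 events). The shared sites therefore lay mostly in the upper part of the CARPO list, with 49.5% of them in its strongest class.

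In the NAC03 list their values lay close to those of the whole list, of which they were the larger part. The shared sites used 2205 different NAC03 events, 54.0% of the 4080 NAC03 events on numbered chromosomes (exact 95% interval 52.5% to 55.6%). Their NAC03 strength had a median of 20.7, against 20 over all NAC03 events. The NAC03 partners at the places with all 3 factors had a median of 25. NAC03 events without a CARPO partner were not compared as a group, so the NAC03 background is not separate from the shared sites. A −log10 q-value of at least 4 was reached by 81.8% of the shared sites in the CARPO list (background 52.2%), whereas 27.5% of their NAC03 partners reached it (background 26.0%). Sites that passed this limit in both lists numbered 576 (25.4%).

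Across the shared sites, CARPO and NAC03 strengths had a Spearman rank correlation of 0.536 over 2269 sites. The lists share the same kind of leaf DNA, and the correlation is a description over sites with no p-value. Divided into terciles of strength, 459 sites stood in the strongest tercile of both lists. There were 91 sites in the strongest CARPO and the weakest NAC03 tercile, and 101 with the opposite combination. The plot of CARPO against NAC03 strength shows a broad cloud at low strength and a thin tail of sites that were strong in both.

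**Figure D1:**
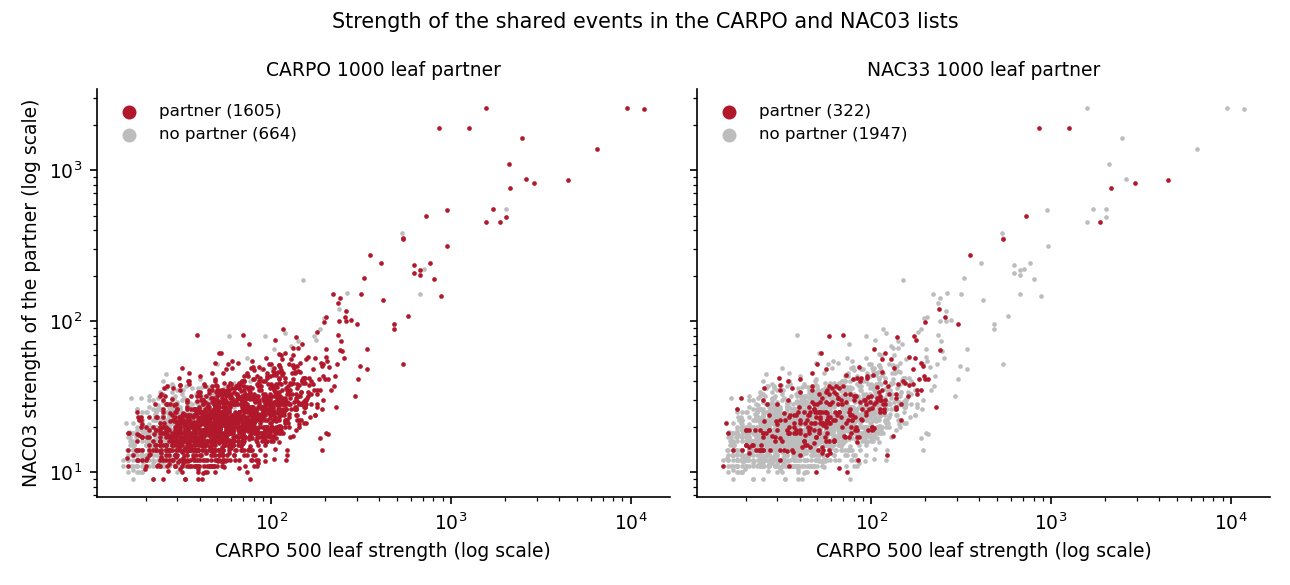
CARPO 500 leaf strength (horizontal, log scale) and NAC03 strength of the nearest partner (vertical, log scale) of the 2269 shared sites, each a point. Red points had a partner within 100 bp in the CARPO 1000 leaf list (left, 1605 sites) or in the NAC33 1000 leaf list (right, 322 sites), and grey points had none. Sites with a CARPO 1000 partner lie mostly to the right, at high CARPO strength, and those with a NAC33 1000 partner also lie towards higher strength, with a median CARPO strength of 58 against 44.2 for the rest.

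The tail is led by 2 places with equal mean rank over the CARPO and NAC03 lists, 2.5. On chromosome 9, the event at 20833239 to 20833439 (position 20833339) was the strongest of the CARPO 500 leaf list with a strength of 11804.7. Its NAC03 partner lay 5 bp away and ranked 4 with a strength of 2549. It ranked 2 in CARPO 1000 leaf (10332) and 1 in CARPO 500 berry (6258.4). This place thus stood near the top of all 4 CARPO and NAC03 lists, and the nearest NAC33 500 leaf event was 50474 bp away.

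The other leader, on chromosome 11 at 19741225 to 19741425 (position 19741325), had a CARPO strength of 9519.4 (rank 2) and a NAC03 strength of 2595.2 (rank 3). It was the strongest event of CARPO 1000 leaf at 13132 and ranked 2 in CARPO 500 berry at 5018.4. No NAC33 list had an event within 100 bp, the nearest of NAC33 500 leaf being 65727 bp away. Both leaders were therefore recovered in every CARPO and NAC03 list and in none of the 3 NAC33 lists.

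A further site, on chromosome 5 at 11512359 to 11512559 (position 11512459), had a CARPO strength of 6475 (rank 3) and a NAC03 event at the same base with a strength of 1382.4 (rank 8). It ranked 9 in CARPO 1000 leaf (3057) and 3 in CARPO 500 berry (3932.6). Its nearest NAC33 500 leaf event was 21342 bp away, but the NAC33 berry list held one only 169 bp away, outside the limit. On chromosome 8 at 3570757 to 3570957 (position 3570857), a site with no NAC33 partner in any list had ranks of 13 in CARPO 500 leaf (2615.6), 12 in NAC03 (869), 15 in CARPO 1000 leaf (1934) and 10 in CARPO 500 berry (1700.5). It kept a similar rank in all 4 lists.

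Chromosome 9 held 2 more of the best ranked sites. The event at 20833347 to 20833547 (position 20833447) lay next to the leader and had a CARPO strength of 2483.3 (rank 16) with a NAC03 partner 38 bp away that ranked 7 (1624). The event at 17381011 to 17381211 (position 17381111) had a CARPO strength of 4466 (rank 6) and a NAC03 event at the same base (855, rank 13), and ranked 3 in CARPO 1000 leaf (5943) and 5 in CARPO 500 berry (2709). This last site differed from the other leaders in the NAC33 lists: NAC33 500 leaf had its nearest event 143630 bp away, while NAC33 1000 leaf had one at the same base with a strength of 982, rank 8 in that list. Absence from the NAC33 500 leaf list was therefore not absence from NAC33 data as a whole, even at a strong site.

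The other 4 lists did not enter the choice of sites. They are of the same factors, CARPO and NAC33, and CARPO 1000 leaf strengths had a Spearman rank correlation of 0.755 with CARPO 500 leaf strengths over the 1605 sites in both, given as a description with no p-value. Of the 2269 shared sites, 1605 had a CARPO 1000 leaf event within 100 bp (70.7%, exact 95% interval 68.8% to 72.6%), against a background of 46.9% over all CARPO 500 leaf events. In CARPO 500 berry 1097 had one (48.3%, 46.3% to 50.4%; background 22.5%). In NAC33 1000 leaf 322 had one (14.2%, 12.8% to 15.7%; background 10.6%), and in NAC33 500 berry 22 had one (0.970%, 0.609% to 1.46%; background 1.42%). CARPO thus returned to most of the shared sites at 1000, and NAC33 was found at some of them at 1000 although it was missing at 500. The background of the NAC33 lists includes places with a NAC33 500 leaf event, which the shared sites lack by choice.

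The intervals cover counting error only and treat sites as independent. Each condition had 1 list, so no difference between lists or groups of sites was tested. The CARPO 500 leaf events with neither other factor, the largest group to set beside the shared sites, had a CARPO 1000 leaf partner in 40.0% (39.1% to 41.0%), a CARPO berry partner in 14.5% (13.8% to 15.2%), a NAC33 1000 leaf partner in 3.58% (3.23% to 3.94%) and a NAC33 berry partner in 0.212% (0.135% to 0.319%). The shared sites stood above them in all 4 lists, with intervals that did not overlap. The 784 places with all 3 factors had a CARPO 1000 leaf partner in 75.5% (72.3% to 78.5%) and a CARPO berry partner in 60.5% (56.9% to 63.9%), a NAC33 1000 leaf partner in 70.8% (67.5% to 74.0%) and a NAC33 berry partner in 16.8% (14.3% to 19.6%). The shared sites were lower than those places in all 4 lists, with overlapping intervals in CARPO 1000 leaf alone, and the choice by NAC33 500 leaf events partly fixes the gap in the NAC33 lists.

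**Figure D2:**
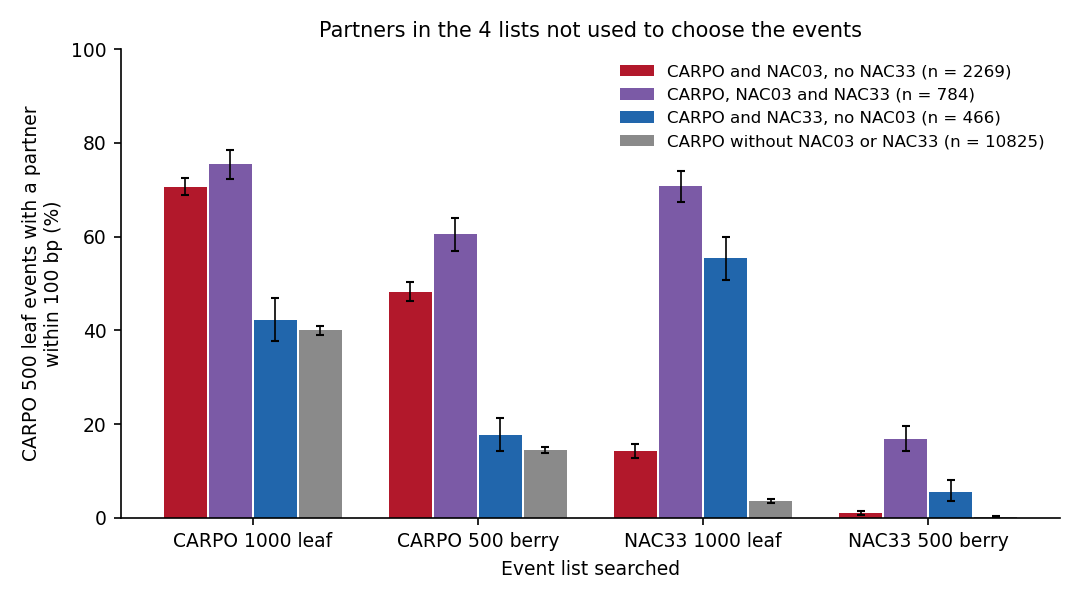
Percentage of CARPO 500 leaf events with an event within 100 bp (vertical) in each of the 4 lists that did not choose them (horizontal), for 4 groups of events; bars start at 0 and error bars are exact 95% intervals. The shared sites (red) reach 70.7% in CARPO 1000 leaf and 48.3% in CARPO 500 berry, above the events with neither NAC03 nor NAC33 (grey, 40.0% and 14.5%), and 14.2% in NAC33 1000 leaf against 3.58%.

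With the 4 lists side by side, 813 shared sites (35.8%) had partners in both further CARPO lists and in neither further NAC33 list. These recurrent sites had a median CARPO strength of 75. Another 516 (22.7%) had a CARPO 1000 leaf partner alone, and 77 (3.39%) a CARPO berry partner alone. No partner in any of the 4 lists was found for 534 sites (23.5%), whose median CARPO strength was 27. The recurrent sites were thus stronger by median than the sites that were not found again. The latter had the median strength of CARPO events with neither other factor. These combinations were not counted over other CARPO events, so whether their shares are particular to the shared sites was not tested. Recovery also rose with strength at CARPO events with neither other factor. Of these, 14.3% in the weakest class and 87.7% in the strongest had a CARPO 1000 leaf partner.

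The CARPO berry list largely picked from the sites already found at 1000. Of the 1605 sites with a CARPO 1000 leaf partner, 1012 had a berry partner too (63.1%), while of the 664 without one, 85 did (12.8%). Over the shared sites, 74.5% had a partner in at least 1 of these lists. Such joint counts were not made over other CARPO 500 leaf events, so whether they are particular to the shared sites was not tested. The backgrounds of the single lists over all CARPO 500 leaf events were 46.9% in CARPO 1000 leaf and 22.5% in CARPO 500 berry. Seen from the other side, off chr00 the shared sites had 17.6% of the events in CARPO 1000 leaf and 29.3% in CARPO 500 berry. They had 5.03% of those in NAC33 1000 leaf and 3.18% of those in NAC33 500 berry. Beside these, the shared sites were 15.8% of the CARPO 500 leaf events, close to their part of CARPO 1000 leaf.

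Recovery in the CARPO lists followed CARPO strength. In the strongest of the 5 classes 93.3% of the shared sites had a CARPO 1000 leaf partner (91.7% to 94.7%), and in the weakest 22.3% did (15.7% to 30.1%). Events of the strongest class with neither other factor had one in 87.7% (85.7% to 89.5%), and those of the weakest class in 14.3% (13.0% to 15.7%). In the middle 3 classes the shares were 68.9%, 44.9% and 27.7% for the shared sites, against 62.8%, 39.1% and 25.4%. Within the classes the gap was smaller than over all events, and in each of those 3 middle classes the intervals overlapped. In the strongest class the intervals were apart. The median CARPO strength there was 76.2 for the shared sites and 60.0 for the events with neither other factor.

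When the shares of the events with neither other factor were weighted to the strengths of the shared sites in 5 classes, the value in CARPO 1000 leaf was 70.7% for the shared sites and 65.2% for the others. The difference of 30.7 percentage points without weighting became 5.56 points, and 6.10 points with 20 classes. For CARPO 500 berry the difference was 33.9 points unweighted, 15.9 points with 5 classes and 13.2 points with 20 classes. The strength of the sites in the CARPO list thus moved together with most of the gap in CARPO 1000 leaf and with a large part of that in berry.

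For NAC33 1000 leaf more of the gap was left at like strength. In the strongest class 19.1% of the shared sites had a NAC33 1000 leaf partner (16.8% to 21.5%), against 7.71% (6.26% to 9.37%) of the events with neither other factor. In the weakest class the shares were 7.91% (4.02% to 13.7%) and 1.62% (1.17% to 2.18%). Weighting to the strengths of the shared sites in 5 classes left 14.2% against 5.67%, a difference of 8.52 points, and 8.34 points with 20 classes, beside 10.6 points unweighted. For NAC33 500 berry, with 22 shared sites, the difference was 0.757 points unweighted, 0.647 with 5 classes and 0.332 with 20 classes. In NAC33 1000 leaf the intervals of the groups were apart in each class except the third, where they were 4.44% to 10.4% and 3.03% to 4.60%. The difference between the lists in this respect was not tested.

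**Figure D3:**
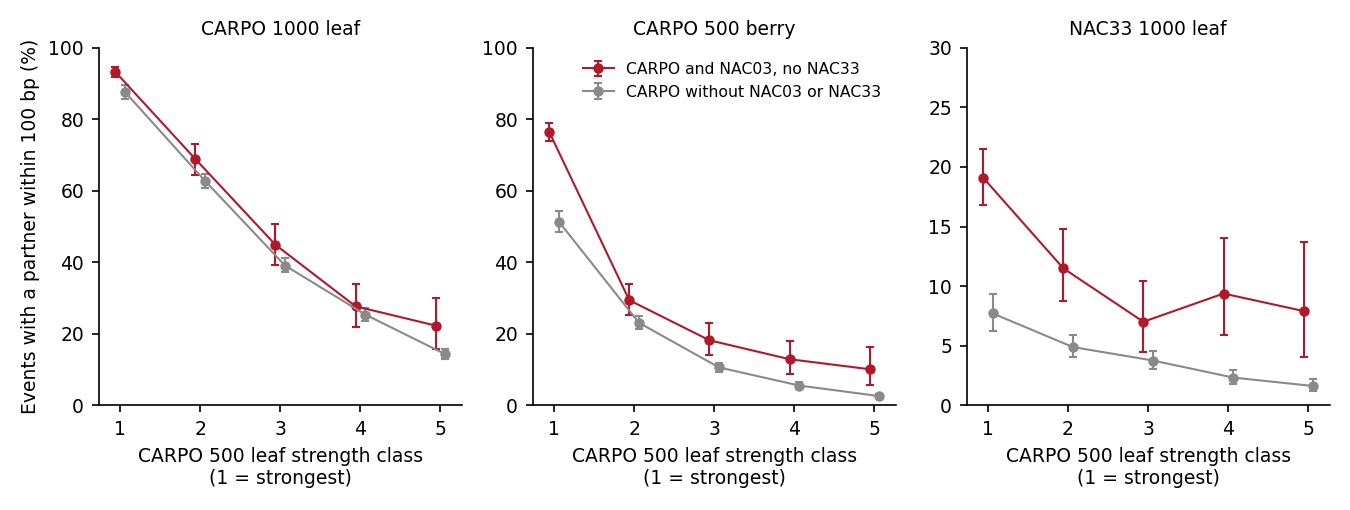
Percentage of events with a partner within 100 bp (vertical) by class of CARPO 500 leaf strength (horizontal, 1 is the strongest of 5 equal classes), for the shared sites (red) and for CARPO events with neither NAC03 nor NAC33 (grey); error bars are exact 95% intervals, and the right panel has a shorter axis. The curves run close together in CARPO 1000 leaf (93.3% and 87.7% in the strongest class) and apart in NAC33 1000 leaf (19.1% and 7.71%).

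Over all shared sites, the share with a CARPO 1000 leaf partner was 81.6% in the strongest NAC03 tercile, 69.2% in the middle one and 61.4% in the weakest, and the share with a NAC33 1000 leaf partner was 21.2%, 12.7% and 8.72%. Within terciles of CARPO strength the lists parted. These terciles are wide, the strongest running from 62.6 to 11804.7, so CARPO strength was not held equal within them. Within the strongest CARPO tercile, a CARPO 1000 leaf partner was found for 436 of 459 sites in the strongest NAC03 tercile (92.6% to 96.8%), 96.6% in the middle one and 100% in the weakest (91 of 91 sites, 96.0% to 100%). A NAC33 1000 leaf partner was found for 23.7% (19.9% to 27.9%), 12.6% (8.41% to 17.9%) and 12.1% (6.19% to 20.6%) of the same sites. In the middle CARPO tercile the NAC33 values were 20.4%, 14.8% and 10.6%, while those of CARPO 1000 leaf were 75.5%, 76.8% and 84.4%. In the weakest CARPO tercile they were 10.9%, 10.3% and 6.70% for NAC33 1000 leaf, with overlapping intervals, and 32.7%, 37.9% and 37.7% for CARPO 1000 leaf. In each tercile of CARPO strength the sites strongest with NAC03 thus had the highest NAC33 1000 leaf share and the lowest CARPO 1000 leaf share, with no test of either. For CARPO 1000 leaf the intervals overlapped in every CARPO tercile. For NAC33 1000 leaf they were clearly apart only between strong and middle NAC03 in the strongest CARPO tercile. In the middle CARPO tercile those of strong and weak NAC03 met at 15.0%.

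**Figure D4:**
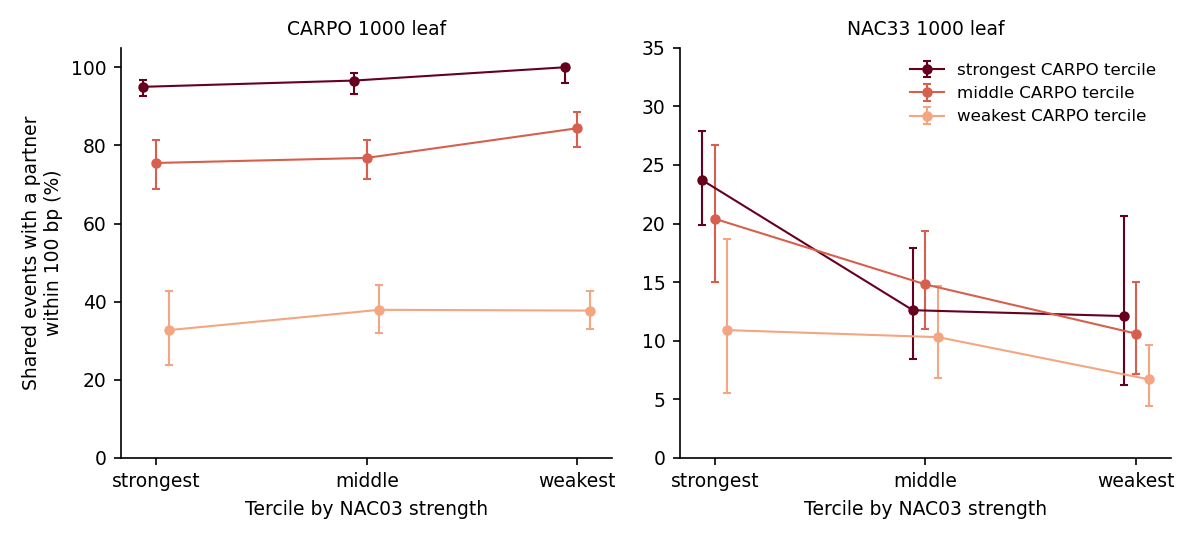
Percentage of shared sites with a CARPO 1000 leaf partner (left) or a NAC33 1000 leaf partner (right) within 100 bp, by tercile of NAC03 strength (horizontal) and tercile of CARPO 500 leaf strength (colour); error bars are exact 95% intervals and the panels have different axes. On the left the lines are separated by CARPO strength and do not fall towards weak NAC03; on the right the strongest CARPO tercile stands at 23.7% with strong NAC03 and at 12.1% with weak NAC03.

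The 322 shared sites with a NAC33 1000 leaf partner had a median CARPO strength of 58, against 44.2 for the 1947 without one. Their NAC03 partners had a median strength of 24.6, against 20. The NAC33 1000 events themselves had a median rank of 3259.5 of 6298 in their list, whereas those at places with all 3 factors had a median rank of 984. At CARPO events with neither other factor, which also lack a NAC33 500 leaf event by choice, the median rank was 3583. NAC33 1000 events at the shared sites were thus mid-list events as a rule, and this was not particular to them. The choice by NAC33 500 leaf events partly fixes the contrast with the places with all 3 factors. A NAC33 500 leaf event at 101 to 250 bp, just beyond the limit, was found for 17 of the 322 (5.28%, 3.11% to 8.32%), beside 74 of all 2269 shared sites (3.26%, 2.57% to 4.08%).

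Both further NAC33 lists had a partner at 15 shared sites. The strongest of them in CARPO lay on chromosome 6 at 3496993 to 3497193 (position 3497093), with a CARPO 500 leaf strength of 540.9 (rank 72) and a NAC03 strength of 351.5 (rank 38). It had NAC33 events 6 bp away in NAC33 1000 leaf (369, rank 25) and 3 bp away in NAC33 500 berry (410, rank 17), yet the nearest NAC33 500 leaf event was 42566 bp away. It was also present in CARPO 1000 leaf (245.7) and CARPO 500 berry (387.3), so that NAC33 500 leaf was the only list without it. The next was on chromosome 7 at position 18183013, with strengths of 206 in CARPO 500 leaf, 41 in NAC03, 26 in NAC33 1000 leaf and 22 in NAC33 500 berry. On chromosome 10 at position 2811062, the values were 131.5, 17.4, 41 and 15 in the same order, and the events of NAC03 and of both NAC33 lists lay within 2 bp of the CARPO event.

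The opposite case is a strong shared site that no further list held. The strongest lay on chromosome 19 at 7447683 to 7447883 (position 7447783), with a CARPO strength of 708.8 (rank 56) and a NAC03 partner 15 bp away at 221 (rank 57). Its nearest CARPO 1000 leaf event was 3266 bp away. On chromosome 8 at position 12964197, a CARPO event of 671.7 (rank 60) had a NAC03 partner 67 bp away (151, rank 83), and CARPO 1000 leaf had its nearest event at 289 bp. On chromosome 13 at position 9628544, the CARPO event had 537 (rank 75) and the NAC03 partner, 11 bp away, 383 (rank 32). The −log10 q-values of these CARPO events were 73.25, 55.7 and 19.35 in that order, against a median of 8.28 over the shared sites. The value on chromosome 13 was low for its strength, as the chromosome 6 site of strength 540.9 had 51.58. High strength with both factors at 500 therefore did not ensure an event at 1000 or on berry DNA. In these 3 cases the NAC03 partner lay 11 bp or more from the CARPO event.

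The CARPO and NAC03 events were placed within a few bases of each other. Of the 2269 shared sites, 1307 (57.6%) had the NAC03 event exactly 1 bp from the CARPO event, 659 on the side of higher coordinates and 648 on the side of lower ones. Within 2 bp lay 1457 (64.2%), from 3 to 10 bp 240 (10.6%), from 11 to 50 bp 401 (17.7%) and from 51 to 100 bp 171 (7.54%). In CARPO 1000 leaf 948 of the 1605 partners (59.1%) lay exactly 2 bp away, and in CARPO 500 berry 498 of 1097 (45.4%) lay 1 bp away. The commonest distance was thus 1 bp for NAC03 and CARPO 500 berry and 2 bp for CARPO 1000 leaf, with sites on either side. Of the CARPO 1000 leaf partners, 65.9% lay within 2 bp, against 70.4% at places with all 3 factors and 47.4% with neither other factor. For CARPO 500 berry the shares were 55.7%, 56.8% and 40.8%. Such close placement was therefore not particular to the shared sites. The NAC03 distance was not counted at places with all 3 factors.

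At a given site, events of the other lists at their commonest distances lay mostly on the same side of the CARPO 500 leaf position. Among the 771 shared sites with NAC03 at 1 bp and CARPO 1000 leaf at 2 bp, the events lay on the same side of the CARPO 500 leaf event in all 771. With NAC03 and CARPO berry each at 1 bp it was 407 of 413 sites (98.5%). With NAC33 1000 leaf at 2 bp it was 62 of 63, and with NAC33 500 berry at 1 bp 7 of 7. These distances are all counted from the CARPO 500 leaf position and are not independent of each other. CARPO 1000 leaf at 2 bp and CARPO berry at 1 bp were on the same side at 363 of 369 shared sites (98.4%), against 349 of 353 CARPO events with neither NAC03 nor NAC33 (98.9%), so this was not a feature of the shared sites alone.

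**Figure D5:**
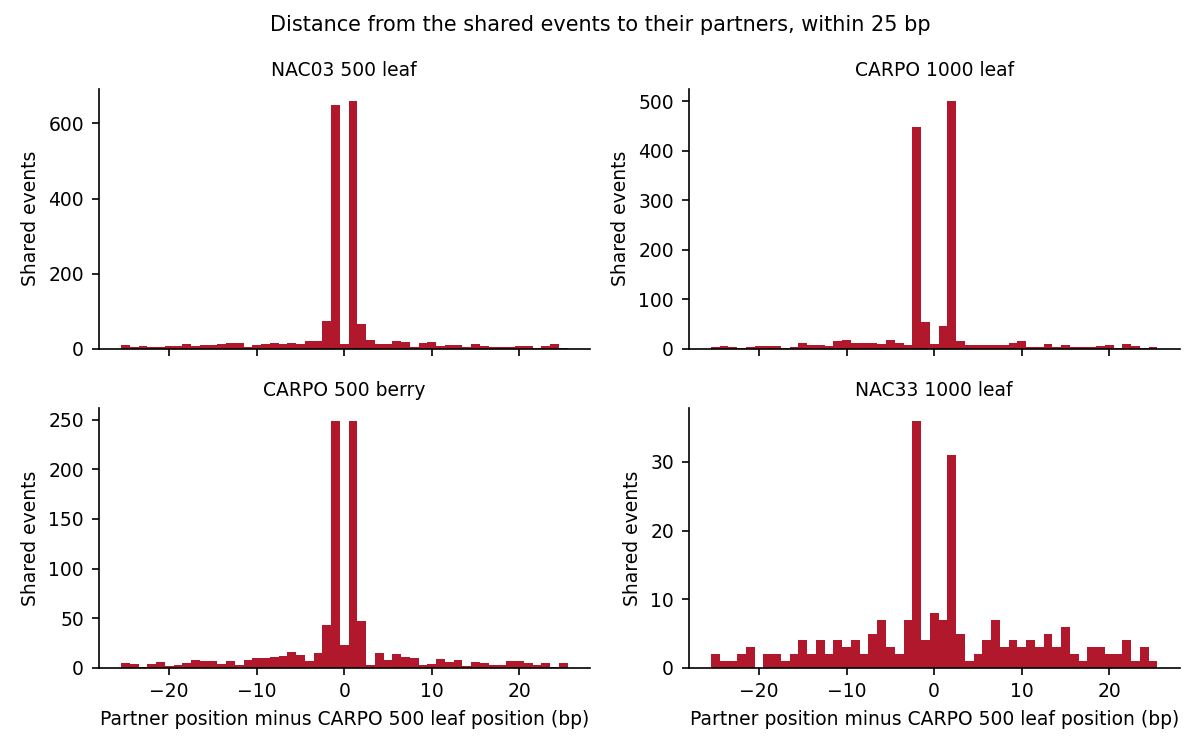
Number of shared sites (vertical) by the position of the partner minus the CARPO 500 leaf position, in bp (horizontal, limited to 25 bp on each side), for NAC03 and 3 of the lists that did not choose the sites; vertical axes differ. Pairs of peaks stand at 1 bp for NAC03 and CARPO berry (648 and 659, 249 and 249 sites) and at 2 bp for CARPO 1000 leaf (448 and 500) and NAC33 1000 leaf (36 and 31).

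NAC33 was placed less tightly. The median distance from the shared sites to their NAC33 1000 leaf partners was 12.5 bp, with 26.7% within 2 bp, against a median of 2 bp and 65.9% for CARPO 1000 leaf partners. Even so the commonest distance was 2 bp, at 67 of 322 sites (20.8%). At places with all 3 factors 34.4% of the NAC33 1000 leaf partners lay within 2 bp of the CARPO event. For CARPO events with neither other factor this was 26.6%, much as for the shared sites.

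Recovery was also set against the distance of the NAC03 event. With NAC03 within 2 bp, 72.3% of the shared sites had a CARPO 1000 leaf partner (69.9% to 74.6%). The share was 71.2% (65.1% to 76.9%) at 3 to 10 bp, 65.6% (60.7% to 70.2%) at 11 to 50 bp and 69.0% (61.5% to 75.8%) at 51 to 100 bp. For NAC33 1000 leaf the shares were 16.3% (14.4% to 18.3%) within 2 bp, 9.58% (6.17% to 14.0%) at 3 to 10 bp, 9.98% (7.22% to 13.3%) at 11 to 50 bp and 12.9% (8.24% to 18.8%) at 51 to 100 bp. The median CARPO strength in these 4 distance classes was 47, 56.5, 48 and 37.1. The CARPO 1000 leaf intervals of the closest and the farthest class overlapped. For NAC33 1000 leaf the share was highest with NAC03 within 2 bp, with an interval apart from those at 3 to 10 bp and at 11 to 50 bp but not from that at 51 to 100 bp.

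The sites just inside and outside the limits show what the rule separates. The NAC03 distance was 100 bp at a shared site on chromosome 13 at position 26747801 (CARPO strength 47.4) and 99 bp on chromosome 17 at position 459176 (60). It was 101 bp at an event left out on chromosome 16 at position 1679499 (28.4) and 103 bp on chromosome 1 at position 10787331 (64). Shared sites with a NAC33 500 leaf event at 101 bp lay on chromosome 14 at position 18769594 (85.3) and on chromosome 5 at position 1030954 (24.2), and events left out with NAC33 at 100 bp lay on chromosome 8 at position 20688148 (119.5) and on chromosome 3 at position 8915871 (65). These values describe the rule and have no test. A NAC33 500 leaf event lay between 101 and 1000 bp from 169 of the shared sites (7.45%), against 4.64% of the CARPO events with neither other factor.

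The lowest CARPO strength, 15, was shared by 2 sites. The first of them by chromosome, on chromosome 11 at position 13518248, had a NAC03 partner 1 bp away with a strength of 11. The nearest CARPO 1000 leaf event was 20152 bp away, while NAC33 1000 leaf had one 55 bp away (14). It was thus at the low end of each list that held it.

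Shared sites occurred on all 19 numbered chromosomes, between 64 on chromosome 16 and 232 on chromosome 18. They made up from 12.4% of the CARPO 500 leaf events on chromosome 16 (9.68% to 15.6%) to 18.2% on chromosome 2 (15.2% to 21.6%) and chromosome 10 (15.4% to 21.4%). Per Mb of chromosome, with the length taken from the highest event end of any list, there were from 2.72 on chromosome 16 to 6.97 on chromosome 8. CARPO events of any kind in that list had 22.0 per Mb on chromosome 16 and 42.8 on chromosome 8, also their lowest and highest values, so the sites followed the CARPO events in number. The share of sites with a CARPO 1000 leaf partner ran from 62.0% on chromosome 5 to 75.6% on chromosome 10.

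Most sites had no other shared site within 10000 bp. No reference spacing was computed, so whether the sites lie closer together or farther apart than other placements was not tested. The median distance to the nearest other shared site was 43292 bp, and 23.7% had one within 10000 bp, 10.7% within 1000 bp and 5.16% within 100 bp. There were 128 sites (5.64%) that shared their NAC03 event with another site, so these sites share a place and are not independent. The window of 10000 bp with the most sites held 5, on chromosome 1 at positions 3519188, 3519228, 3523183, 3524359 and 3525204, with CARPO strengths from 31.9 to 118.7. All 5 CARPO 500 leaf events in that window were shared with NAC03 and all had a CARPO 1000 leaf partner, 3 had a CARPO berry partner, and 2 had a NAC33 1000 leaf partner.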

How the data were processed

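The authors deposited 7 event lists in a narrowPeak layout of 10 columns with decimal commas and no header. GEM, an event caller, is given by the file naming alone. fastp 0.21.0 and Bowtie2 2.0 are named in the submitters' processing notes, with no role stated. The genome build, the control and the filters are not given in the sources used here. The event score (column 5) deposited by the authors rescales column 7, which was read from its values as the event strength. Columns 8 and 9 were likewise read as the authors' −log10 p-value and −log10 q-value, capped at 999.

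The position of an event was column 2 plus column 10 plus 1, in intervals of 201 bp. Events pair when at most 100 bp apart on the same sequence, and the nearest partner gives strength and distance. Ranks are over the whole list, chr00 included, and ties share a mean rank. Shares carry exact Clopper-Pearson 95% intervals, for counting error only. No significance test was made, because the lists chose the sites and each condition had 1 list. Python 3.11.15, pandas 2.3.3 and scipy 1.17.1 were used, and the partner search was tested on simulated data with planted partners, where 0 of 5000 events were classed wrongly.

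The sites and comparisons were chosen with earlier results of these data known. Sites named were the best by mean rank, the strongest with both or none of the further lists, those at the limits of the rule, the weakest, and the densest window. The planned count of a NAC sequence word, and sequences and genes at the sites, were not analysed here, because no genome of the lists' build was used. The gene table at hand holds 0 of the 6 gene identifiers of the labels. Alternatives changed the partner distance, the q-value limit, the NAC33 distance, the pairing and chr00.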

Additional observations from a re-analysis of the deposited data

Results flagged for a closer look

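The unplaced sequence chr00 was left out by the choice of sites but also held events that meet its other conditions. Of its 442 CARPO 500 leaf events, 100 had a NAC03 event and no NAC33 500 leaf event within 100 bp (22.6%, a description, since the same lists define the sites; exact 95% interval 18.8% to 26.8%), beside 15.8% on the numbered chromosomes. Their median CARPO strength was 125, against 47 at the sites on numbered chromosomes. A CARPO 1000 leaf partner was found for 63.0% of them (52.8% to 72.4%), a CARPO berry partner for 58.0% (47.7% to 67.8%), a NAC33 1000 leaf partner for 16.0% (9.43% to 24.7%) and a NAC33 berry partner for 5 of 100 (1.64% to 11.3%). The median strength and partner shares were not computed over all 442 chr00 events, so these values have no chr00 background beside them.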

How the results depend on the processing

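Of 44 values recomputed under other settings, 35 stayed within the interval of the reported value (for counts, within 1.5 times), 9 moved beyond it, and 0 changed sign. A −log10 q-value of at least 4 in the CARPO 500 leaf and NAC03 lists left 580 shared sites, fewer because the limit is stricter. The 576 sites given above were counted by the q-value of the nearest NAC03 partner alone. At the limit 88.3% had a CARPO 1000 leaf partner, 71.4% a CARPO berry partner, 21.7% a NAC33 1000 leaf partner and 1.55% a NAC33 berry partner. The CARPO 1000 share exceeded that of CARPO events classed with neither other factor at this limit by 21.6 percentage points. That group is not the one of the main setting, so the value is not directly comparable with 30.7 points. A partner distance of 50 bp gave a CARPO 1000 share of 68.4%. Weighting to the strengths of the shared sites, chosen after the data were seen, gave a difference of 5.56 points with 5 classes and 6.10 points with 20 classes. These weightings are descriptions, and the cause was not tested. A distance of 250 bp, overlap of the intervals, no NAC33 500 leaf event within 1000 bp, mutual nearest partners and the inclusion of chr00 moved none of the 6 results, with 2100 to 2369 shared sites. Depth is unknown, and sites without a partner may still hold a weaker event that was not listed. No paired analysis was possible because each condition has 1 list, the 2 NAC33 and CARPO 500 leaf lists having been called on pooled replicates and the others on 1 library, which also kept single replicates from being left out.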
